A study of Bos taurus with 147 samples.

Results

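Enolase and lactate dehydrogenase are enzymes of sugar breakdown that exist in a muscle form and a more widespread form, and the 4 genes described here are ENO3 and ENO1 for enolase and LDHA and LDHB for lactate dehydrogenase. They were chosen by name, from the array elements that carry a single gene name. The rule used no measured value, but the genes were proposed with earlier results of these data known. The 4 genes are 4 of 976 named genes, and their 92 elements are part of the 4490 elements with 1 gene name. ENO3 was represented by 56 elements from 25 cDNA sequences, LDHA by 24 elements from 9, ENO1 by 8 elements from 4 and LDHB by 4 elements from 2.

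Enolase is a dimer that forms phosphoenolpyruvate late in glycolysis. The alpha subunit, encoded by ENO1, is found in most tissues and in early embryos, and the beta subunit, encoded by ENO3, is the form of striated muscle fibres. Lactate dehydrogenase is a tetramer that interconverts pyruvate and lactate. LDHA encodes the subunit that is abundant in skeletal muscle working without oxygen, and LDHB the subunit that prevails in heart and other oxidative tissues. For this pair, muscle form and widespread form are used below only as labels of LDHA and LDHB.

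Longissimus muscle was compared on two-colour cDNA arrays, on which RNA of one group carried Cy5 and RNA of another Cy3, and each value is the log2 ratio of the 2 groups on an array. In the fetal experiment, 25 arrays joined 8 groups in a closed loop. With 3 animals of each sire breed at each age, these groups were fetuses of 60 (d 60), 135 (d 135) and 195 days (d 195) and newborn calves, all from Hereford dams and sired either by Piedmontese bulls, which carried 2 copies of the missense mutation in the myostatin gene GDF8, or by Wagyu bulls without it. Each link of the loop held 3 arrays, apart from the link between Wagyu-sired d 195 and d 135 fetuses with 4. A further 20 arrays compared Piedmontese x Hereford and Wagyu x Hereford cattle at 3 later time points named T1, T2 and T3, whose ages the labels do not give. Another 24 arrays compared 12 pools of Belmont Red muscle RNA, with 2 pools for each of a growth diet and a low diet at T1, T2 and T3.

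Several features of the design bear on every value below. One bull of each breed sired all d 60 fetuses, that Wagyu bull was the sire of every Wagyu-sired fetus of d 135 too, and 1 Piedmontese bull sired all Piedmontese-sired fetuses of d 195, with twins among them. The stages are nominal ages. At d 135 the Piedmontese-sired fetuses were some days younger than the Wagyu-sired ones, and at birth they were as old or older. All newborns were female, whereas most d 195 fetuses were male. At d 60 the muscle was not yet a separate mass, and skin was difficult to take off it. The study also held that linear amplification of the RNA may have biased the d 60 sample of 1 animal, which was Piedmontese-sired. For these reasons it centred its discussion on the later stages. Each fetal animal was used on more than 1 array, so that arrays sharing an animal are not independent and the P-values measure the spread between arrays. The array measures ratios between groups, so that no level of one gene was set against the level of another, and an isoform ratio here means how far the muscle form moved relative to the widespread form between 2 groups. Piedmontese-sired fetuses carried the earlier stage in Cy5 and Wagyu-sired fetuses the later stage, and a term for the dye was fitted. The later crossbred arrays between times had the same layout of dyes. On the arrays between breeds, Wagyu RNA was always in Cy5 at d 60 and Piedmontese RNA always in Cy5 at birth. Which group a positive ratio favours was taken from the dye given for each channel and the arrows of the published loop, and is therefore likely rather than settled. Array medians ran from -0.482 to 0.465 in the fetal experiment before centring.

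Over fetal development the muscle forms rose and the widespread forms fell. From d 60 to birth, ENO3 rose 10.7-fold and LDHA 6.04-fold, whereas ENO1 decreased to 0.512 and LDHB to 0.415 of the d 60 level, as means over both sire breeds. All 4 genes passed the threshold of an adjusted P of 0.05 in limma, against a background of 48.2% of 16659 features tested, with 22.6% higher and 25.6% lower at birth. The study selected ENO3 and LDHA as rising genes on the same animals, so that their rise is not independent evidence of a direction.

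**Figure D1:**
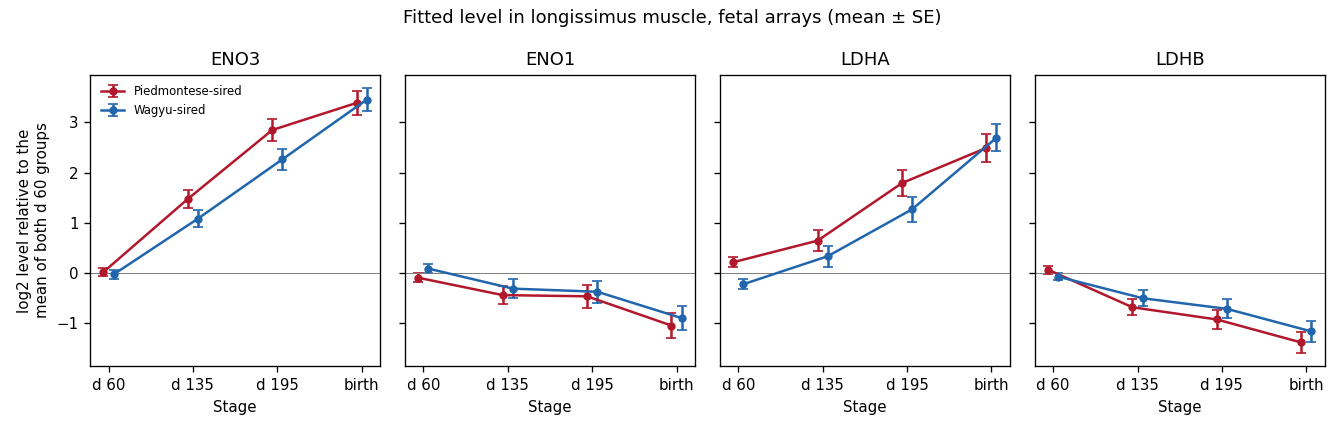
Fitted log2 level (y axis) of the 4 genes at each stage (x axis) in Piedmontese-sired and Wagyu-sired animals, relative to the mean of both d 60 groups, with bars of 1 SE. ENO3 climbs to 3.39 and 3.45 and LDHA to 2.49 and 2.70 at birth, while ENO1 and LDHB end below 0 in both sire breeds.

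ENO3 gained at each step. On the 3 Piedmontese arrays of d 135 over d 60 its log2 ratio was 1.32, 1.30 and 1.29, and on the 3 Wagyu arrays it was 1.17, 1.49 and 1.11. The arrays of d 195 over d 135 gave 1.15, 1.56 and 0.96 in Piedmontese-sired fetuses and 1.86, 1.22, 1.02 and 1.22 in Wagyu-sired fetuses. All 13 arrays of these steps were thus above 0 by a wide margin. At the last step, birth over d 195, the values were 0.87, -0.04 and 0.35 in Piedmontese-sired animals and 1.60, 1.28 and 1.12 in Wagyu-sired animals. Since the sire breeds carried opposite dyes, their arrays are comparable only after the fitted dye term of 0.15 is taken out. The Piedmontese arrays of the last step then stood at 0.11 to 1.01 and the Wagyu arrays at 0.97 to 1.46. Those of d 135 over d 60 stood at 1.44 to 1.47 and 0.97 to 1.34, although as measured the Piedmontese arrays lay inside the Wagyu range. The fitted breed difference in the change from d 60 to d 135 was 0.34 (SE 0.22, adjusted P = 0.66 in limma). No breed difference of ENO3 passed the test given below. As means of both breeds the log2 changes of ENO3 were 1.28 (SE 0.13, adjusted P = 6.1e-07), 1.27 (SE 0.12, adjusted P = 2.9e-07) and 0.86 (SE 0.13, adjusted P = 9.1e-06) for the 3 steps in turn. Calls among all features covered 31% at the first step, 16.8% at the second and 52.5% at the third.

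LDHA rose at every step as well, least at the first. From d 60 to d 135 its log2 ratio was 0.10, 0.37 and 0.69 on the Piedmontese arrays and 0.52, 0.92 and 0.37 on the Wagyu arrays, all lower than any ENO3 value of that step. Its change there was 0.49 (SE 0.15, adjusted P = 0.015), followed by 1.04 (SE 0.14, adjusted P = 2.9e-05) from d 135 to d 195 and 1.06 (SE 0.15, adjusted P = 5.1e-06) from d 195 to birth. All 19 arrays between stages had LDHA higher at the later stage, from 0.10 to 2.24. The highest of them was 1 Wagyu array of birth over d 195, whose 2 companions read 1.07 and 1.09. The call at the first step was lost with a single element (0.31, adjusted P = 0.11), without the arrays numbered 2 (0.42, adjusted P = 0.14) and without those numbered 3 (0.48, adjusted P = 0.090).

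ENO1, the widespread enolase, fell at the first and the last step and not measurably between them. Its arrays of d 135 over d 60 read 0.24, -0.57 and -0.50 in Piedmontese-sired fetuses and -0.49, -0.53 and -0.38 in Wagyu-sired fetuses, so that 1 array of 6 went against the others. From d 135 to d 195 the values lay on both sides of 0, between -0.43 and 0.25, and the mean change was -0.04 (SE 0.12, adjusted P = 0.85). All 6 arrays of birth over d 195 were below 0, from -1.01 to -0.03, and the change was -0.55 (SE 0.13, adjusted P = 0.0015). The change from d 60 to birth was -0.97 (SE 0.22, adjusted P = 0.0012). Without the arrays numbered 2 this became -0.74 with an adjusted P of 0.051, and the birth over d 195 change became -0.39 with an adjusted P of 0.073. The call for d 135 over d 60 (-0.37, SE 0.13, adjusted P = 0.038) was lost without the arrays numbered 2 or 3, and at the same value of -0.37 with no centring (adjusted P = 0.13), after scaling to 1 spread (adjusted P = 0.063) and with the replicate block (adjusted P = 0.058).

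LDHB, the subunit typical of oxidative tissue, was lower at the later stage on 18 of 19 arrays, from -0.89 to 0.04. It fell by 0.59 on the log2 scale (SE 0.11, adjusted P = 0.00055) from d 60 to d 135 and by 0.45 (SE 0.11, adjusted P = 0.0023) from d 195 to birth. Between d 135 and d 195 its change of -0.23 (SE 0.11) did not pass the threshold (adjusted P = 0.16). Over the whole course the log2 change was -1.27 (SE 0.19, adjusted P = 1.4e-05). When every array was scaled to 1 spread, the last step of LDHB was -0.30 with an adjusted P of 0.054.

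The isoform ratio, taken on each array as the difference between the muscle and the widespread form, cancels the centring of the array. The ENO3 over ENO1 ratio was higher at the later stage on all 19 arrays between stages, by 0.84 to 2.14 on the log2 scale. The LDHA over LDHB ratio was higher on all 19 as well, by 0.47 to 2.87. For comparison, an array on which Piedmontese x Hereford T1 RNA was hybridised against itself read 0.40 for the first ratio and -0.30 for the second, where 0 would be exact.

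**Figure D2:**
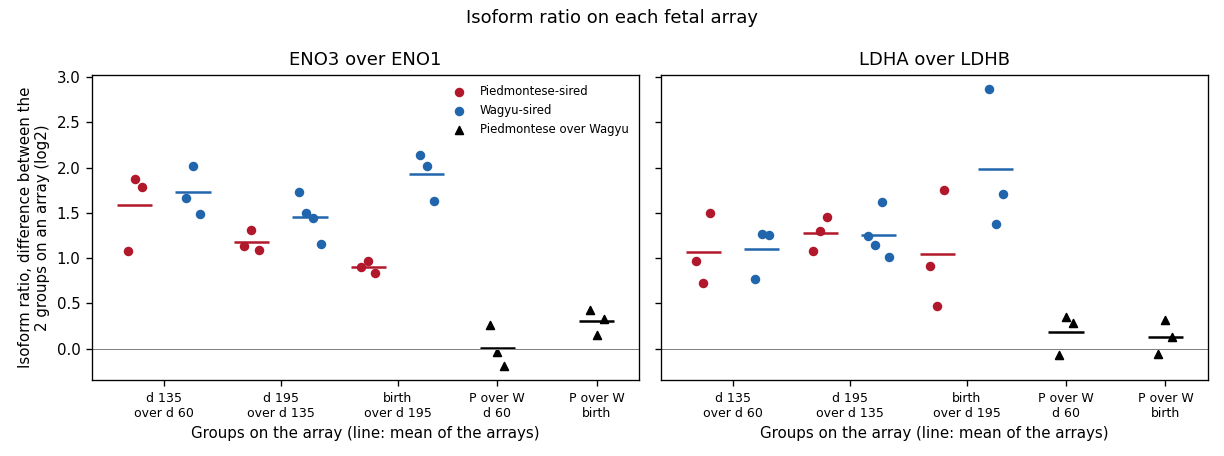
Change of the isoform ratio on each fetal array (y axis, log2) by the 2 groups compared (x axis), with the later stage over the earlier in red for Piedmontese-sired and blue for Wagyu-sired animals, Piedmontese over Wagyu as black triangles, and lines at the means of the arrays. All points between stages lie above 0, from 0.84 for ENO3 over ENO1 and from 0.47 for LDHA over LDHB, whereas the triangles lie between -0.19 and 0.43. The dye term is not taken out of the plotted values.

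From d 60 to birth the ENO3 over ENO1 ratio grew 20.9-fold, a log2 change of 4.39 (SE 0.17, 95% interval 4.03 to 4.75). The steps contributed 1.65 (SE 0.10), 1.32 (SE 0.09) and 1.42 (SE 0.10), with a gain at each of them. The LDHA over LDHB ratio grew 14.5-fold, a log2 change of 3.86 (SE 0.29, 95% interval 3.25 to 4.48), with steps of 1.08 (SE 0.17), 1.27 (SE 0.16) and 1.51 (SE 0.17). When every array was scaled to 1 spread, the last step was smaller, at 0.95 for enolase and 0.99 for lactate dehydrogenase, so that the order of the steps by size depends on the scale. The muscle forms supplied most of both changes, since ENO3 moved by 3.42 and LDHA by 2.59 while ENO1 and LDHB moved by -0.97 and -1.27. No P-value is given for these ratios because each is a score made from the chosen genes. The 4 genes were taken with results of these arrays known, which bears on the P-values of the single genes as well.

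Ordered by level, the 8 fetal groups formed the same sequence for both ratios. The highest were Piedmontese-sired and Wagyu-sired newborns, with log2 levels of 4.43 (SE 0.18) and 4.35 (SE 0.18) for ENO3 over ENO1 relative to d 60, and the 2 did not differ beyond their error, nor did the 2 groups at d 60. Next came d 195, at 3.31 (SE 0.17) in Piedmontese-sired and 2.63 (SE 0.16) in Wagyu-sired fetuses, then d 135 at 1.91 (SE 0.14) and 1.39 (SE 0.14), and last d 60 at 0.11 and -0.11 (SE 0.07 each). For LDHA over LDHB the Piedmontese-sired groups stood at 3.87 (SE 0.31), 2.71 (SE 0.29), 1.33 (SE 0.24) and 0.15 (SE 0.11) from birth back to d 60, and the Wagyu-sired groups at 3.85 (SE 0.31), 1.98 (SE 0.28), 0.84 (SE 0.24) and -0.15 (SE 0.11).

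Single elements of each gene were also examined, since a gene's value is the mean of its elements. All 56 ENO3 elements had a higher birth level, from 1.75 to 4.13 on the log2 scale with a median of 3.43, and all 24 LDHA elements did too, from 1.60 to 3.29 with a median of 2.64. All 8 ENO1 elements had a lower birth level, from -1.41 to -0.15, as did all 4 LDHB elements, from -1.45 to -0.998. The ranges of the muscle forms and the widespread forms did not meet. Elements of a gene followed each other over the 25 arrays with a median correlation of 0.94 for ENO3, 0.95 for LDHA, 0.74 for ENO1 and 0.72 for LDHB, as a description over arrays that share animals and spots that share a cDNA. Whether a cDNA of one form also binds transcripts of the other form was not tested.

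**Figure D3:**
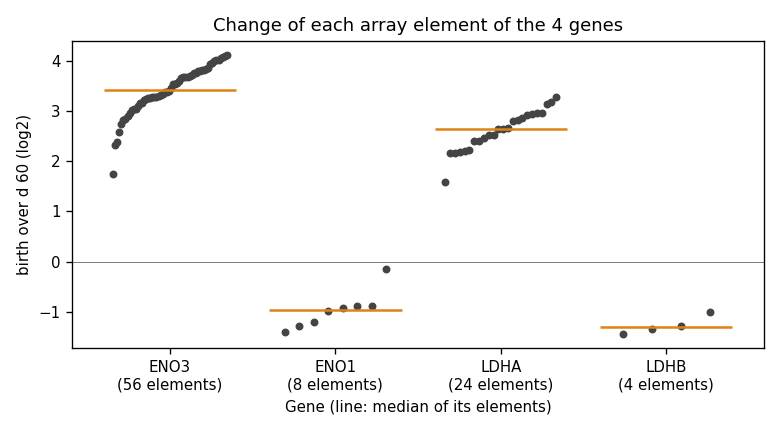
Log2 change from d 60 to birth (y axis) of every array element of the 4 genes (x axis), each dot an element in rising order and each line the median of the gene's elements. The lowest ENO3 and LDHA elements, at 1.75 and 1.60, stand above the highest ENO1 and LDHB elements, at -0.15 and -0.998.

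Other genes of the pathway were taken from a list of 38 genes of glycolysis and glycogen, of which 12 were measured under their name. All 12 rose from d 60 to birth and none fell, where 22.6% of all features rose and 25.6% fell. Their median log2 change was 2.69 against a median of -0.24 over the named genes. The smallest P-values were those of PGAM2, the muscle phosphoglycerate mutase, at 2.91 (SE 0.18, adjusted P = 2.0e-10), PFKM, muscle phosphofructokinase, at 3.36 (SE 0.27, adjusted P = 3.6e-09), and FBP2, the muscle fructose bisphosphatase, at 3.28 (SE 0.31, adjusted P = 2.9e-08). The changes ran from 0.57 (SE 0.23, adjusted P = 0.044) for PGK1, phosphoglycerate kinase, to 3.66 (SE 0.39, adjusted P = 1.1e-07) for PYGM, muscle glycogen phosphorylase. ENO1 fell on the same arrays, unlike any gene of this list. Of the 12 genes, 6 passed as risen from d 60 to d 135, 7 from d 135 to d 195 and 11 from d 195 to birth, where 14%, 10.6% and 26.7% of all features did.

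Of 23 listed genes of pyruvate, lactate and the shuttles between cytosol and mitochondria, 7 were measured. From d 60 to birth 5 rose and none fell, with a median of 1.67, where 22.6% of all features rose, among them PDK4, which restrains pyruvate dehydrogenase, at 2.54 (SE 0.37, adjusted P = 6.1e-06), and GPD1, the cytosolic enzyme of the glycerol phosphate shuttle, at 1.92 (SE 0.24, adjusted P = 9.0e-07). MPC2, a subunit of the mitochondrial pyruvate carrier, read 0.20 (SE 0.28, adjusted P = 0.56) and PC, pyruvate carboxylase, -0.38 (SE 0.25, adjusted P = 0.22).

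Of 26 other pairs of a muscle and a widespread form that were listed, 2 were measured. The adenine nucleotide carriers repeated the opposite movement, with SLC25A4, the form of muscle and heart, rising by 2.85 (adjusted P = 2.1e-07) and the widespread SLC25A6 at -0.84 (adjusted P = 0.0035), a change of their ratio of 3.69 (SE 0.36). The calcium pumps did not, since ATP2A1 of fast fibres rose by 1.83 (adjusted P = 5.5e-07) and ATP2A2 of slow fibres and heart rose by 1.37 (adjusted P = 0.010), and their ratio moved by 0.46 (SE 0.42).

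The named genes whose pattern over the 25 fetal arrays was most like ENO3 by Pearson's correlation were PGAM2 (0.95), whose enzyme acts just before enolase, PGM1 (0.94), phosphoglucomutase, and PFKM (0.94). Most like LDHA were LOC784938 (0.98), a locus that the current reference lists as a pseudogene, FBP2 (0.94) and the thin filament gene TMOD4 (0.91). Whether the elements of LOC784938 share sequence with LDHA was not tested. Most like ENO1 were RNF111 (0.84), TMED9 (0.80) and RAD9A (0.78), and most like LDHB were MAGEH1 (0.87), PHLDB2 (0.86) and FN1, fibronectin (0.86). Among the 4 genes ENO3 and LDHA correlated at 0.83 and ENO1 and LDHB at 0.53, while the pairs of one enzyme stood at -0.43 for enolase and -0.56 for lactate dehydrogenase. These are descriptions over arrays that share animals.

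Markers of muscle fibres rose and those of connective tissue fell from d 60 to birth, while immune markers were split. All 8 measured of 11 markers of skeletal muscle fibres rose, where 22.6% of all features did. Their changes ran from 1.12 for TNNT3 to 3.63 for CKM with a median of 2.27. All 9 measured of 12 markers of connective tissue fell, where 25.6% of all features did. Their changes ran from -4.67 for FN1 to -0.87 for COL6A2 with a median of -3.36. Of the 3 immune markers measured among 6, CD74 rose by 0.78 and CTSS fell by 0.70, and C1QA read 0.10. All 4 adipocyte markers were measured and PLIN1 fell, in a range from -0.45 to 0.05. The 1 endothelial marker measured of 5, EGFL7, was at -2.48, and the 2 smooth muscle markers measured of 4 did not pass. No skin or blood marker was measured. Fewer cells of a type and less RNA per cell cannot be told apart in such tissue, and the part of these markers in the isoform ratios was not tested. From d 60 to birth ENO3 and LDHA rose more than the median fibre marker, and ENO1 and LDHB fell less than the median connective tissue marker. All 4 changes lay within the range of those markers. These are side by side values with no test of the difference.

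The sire breeds were compared at each stage. None of the 16 values, 4 genes at 4 stages, passed the threshold in limma, where the background of calls was 0.048% at d 60, 0% at d 135 and d 195 and 0.276% at birth. Unadjusted, 2 of the 16 had a P under 0.05, for LDHA at d 60 and for ENO3 at d 195. LDHA was higher in the Piedmontese-sired group on all 3 direct arrays at d 60, at 0.07, 0.45 and 0.66, with a fitted difference of 0.44 (SE 0.20, adjusted P = 0.37). At birth its direct arrays read -0.50, 0.32 and -0.29, on both sides of 0. ENO3 was at -0.37, 0.05 and 0.02 at d 60 and at 0.45, -0.22 and 0.03 at birth. Its fitted differences were 0.05 (SE 0.17) and -0.07 (SE 0.17). The readings of these direct arrays are as measured, with Wagyu RNA always in Cy5 at d 60 and Piedmontese RNA at birth. Agreement between the arrays of a stage thus does not separate breed from dye. The fitted dye term was 0.04 (SE 0.07) for LDHA and 0.15 (SE 0.06) for ENO3. At d 195, where the breeds met only through chains of arrays, ENO3 differed by 0.58 (SE 0.24, 95% interval 0.08 to 1.09, adjusted P = 1.00).

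The isoform ratios of the 2 sire breeds were compared in the same way. Piedmontese over Wagyu, the ENO3 over ENO1 ratio differed by 0.23 (95% interval -0.05 to 0.51) at d 60, 0.52 (0.12 to 0.92) at d 135, 0.67 (0.27 to 1.08) at d 195 and 0.08 (-0.20 to 0.36) at birth. The LDHA over LDHB ratio gave 0.30 (-0.18 to 0.78), 0.49 (-0.21 to 1.19), 0.73 (0.04 to 1.43) and 0.02 (-0.46 to 0.50) in the same order. Across the last step, the gain of the enolase ratio was smaller by 0.59 (95% interval 0.23 to 0.96) in Piedmontese-sired animals and that of the lactate dehydrogenase ratio by 0.71 (0.09 to 1.34). No link of the fetal loop had its dyes swapped, so that the breed differences at all 4 stages and in the last step rest on the fitted dye term. This term was 0.22 (SE 0.05) for the enolase ratio and 0.11 (SE 0.08) for the lactate dehydrogenase ratio. As measured, the direct arrays averaged 0.01 at d 60 and 0.30 at birth for the enolase ratio. For the lactate dehydrogenase ratio they averaged 0.19 and 0.13. The fitted breed differences also depended on the scale of the arrays. When every array was scaled to 1 spread, the enolase ratio differed by 0.27, 0.24, 0.14 and 0.14 at the 4 stages in turn and by 0.0075 in the last step, and the lactate dehydrogenase ratio by 0.31, 0.29, 0.24 and 0.0037, so that the order of the stages changed. The gene values behind them did not pass either, with ENO3 at -0.65 (SE 0.22, adjusted P = 0.18) and LDHA at -0.72 (SE 0.26, adjusted P = 0.20) for the difference between breeds in the last step. Over all 4 steps tested, d 60 to birth included, 3 of 16 such differences had an unadjusted P under 0.05 in limma and 0 an adjusted one, where calls among all features were 13.2% for d 60 to birth, 0% for the first step, 0.012% for the second and 0% for the last. With array weights 2 of them passed, ENO3 in the last step (-0.80, adjusted P = 0.038) and LDHA from d 60 to birth (-0.64, adjusted P = 0.045).

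In the later crossbred cattle the widespread enolase fell from each time to the next. ENO1 was lower at the later time on all 8 arrays between times, from -0.89 to -0.11. From T1 to T2 these were -0.52 and -0.27 in Piedmontese x Hereford and -0.89 and -0.74 in Wagyu x Hereford animals, and from T2 to T3 they were -0.11, -0.55, -0.65 and -0.33. ENO1 thus fell by 0.60 (SE 0.11, adjusted P = 0.0065) from T1 to T2 and by 0.41 (SE 0.11, adjusted P = 0.027) from T2 to T3, and its T3 level was 0.495 of that at T1 (log2 -1.01, SE 0.16, adjusted P = 0.0057). Calls covered 6.86%, 10.7% and 0.759% of 17253 features for the same 3 comparisons. All 8 ENO1 elements had the lower value in each of them. With only 2 arrays for each link between times, these calls did not hold without the arrays numbered 1 (adjusted P = 0.55 for T3 over T1) or numbered 2 (0.52), with values of -0.94 and -1.09. With a single element none of the 3 calls held, at -0.36 (adjusted P = 0.13) for T2 over T1, -0.35 (adjusted P = 0.12) for T3 over T2 and -0.71 (adjusted P = 0.16) for T3 over T1. The T2 to T3 call was also lost with no centring (adjusted P = 0.094) and after scaling to 1 spread (adjusted P = 0.052).

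**Figure D4:**
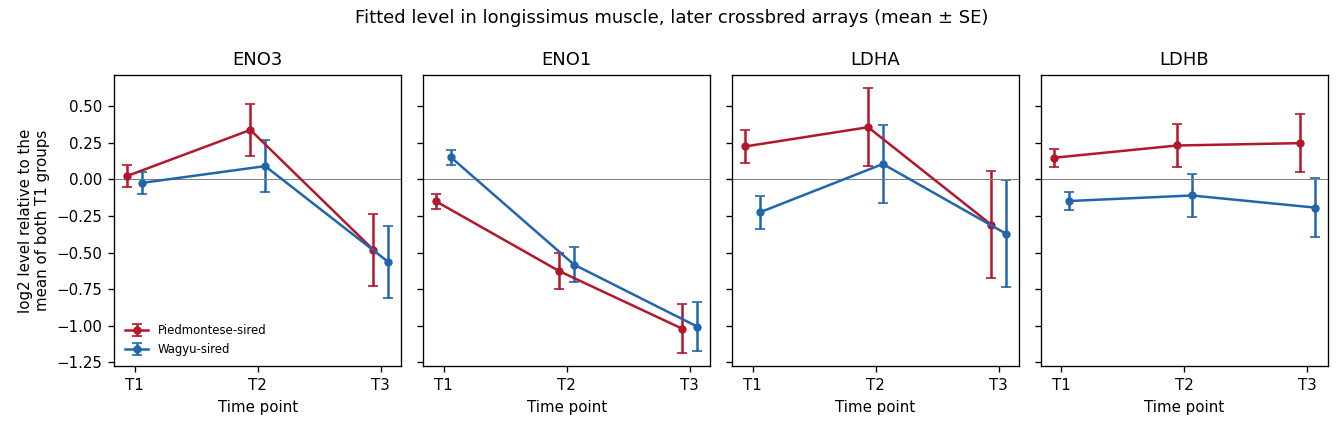
Fitted log2 level (y axis) of the 4 genes at T1, T2 and T3 (x axis) in Piedmontese x Hereford and Wagyu x Hereford muscle, relative to the mean of both T1 groups, with bars of 1 SE. ENO1 declines to -1.02 and -1.01 at T3 in the 2 crosses, ENO3 drops after T2, and LDHB is plotted at 0.15, 0.23 and 0.25 in the Piedmontese cross against -0.15, -0.11 and -0.19 in the Wagyu cross.

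ENO3 followed another course. From T1 to T2 it read -0.07 and 0.29 in the Piedmontese cross and 0.39 and 0.24 in the Wagyu cross, a change of 0.21 (SE 0.16) that did not pass (adjusted P = 0.47). From T2 to T3 it read -1.16 and -1.03 in the Piedmontese cross and 0.09 and -0.85 in the Wagyu cross. These readings of both steps are as measured, the crosses carried opposite dyes, and the dye term was 0.25. With the dye fitted, the T2 to T3 change was -0.82 (SE 0.19) in the Piedmontese cross and -0.65 (SE 0.19) in the Wagyu cross. In the mean of both crosses ENO3 fell by 0.74 (SE 0.16, adjusted P = 0.0096), while T3 over T1 read -0.52 (SE 0.23, adjusted P = 0.58). All 56 elements had a lower value at T3 than at T2. The call was lost without the arrays numbered 2 (-0.54, adjusted P = 0.53). LDHA had a similar course without a call, at 0.23 (SE 0.25, adjusted P = 0.62) and -0.57 (SE 0.25, adjusted P = 0.15) for the 2 steps. LDHB read 0.06 (SE 0.13, 95% interval -0.22 to 0.34) and -0.03 (SE 0.13, 95% interval -0.31 to 0.25) for the steps in the mean of both crosses.

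The changes of the isoform ratios were smaller here, side by side with those before birth. From T1 to T2 the ENO3 over ENO1 ratio was higher by 0.82 (SE 0.25, 95% interval 0.28 to 1.36) and from T2 to T3 it changed by -0.33 (SE 0.25, 95% interval -0.87 to 0.21). The LDHA over LDHB ratio changed by 0.17 (SE 0.20, -0.27 to 0.61) and then by -0.54 (SE 0.20, -0.98 to -0.10). No array joined the newborn calves to the T1 cattle, so that the 2 courses cannot be placed on 1 scale. ENO3 read higher in Cy5 in each experiment, with a dye term of 0.15 (SE 0.06) on the fetal, 0.25 (SE 0.08) on the crossbred and 0.20 (SE 0.03) on the Belmont Red arrays and a self-hybridisation value of 0.34.

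Some other genes of sugar breakdown fell from T2 to T3. Of the 12 measured, 4 fell and none rose, where 10.7% of all features were called in either direction. The median was -0.46 against 0.02 over all features. The 4 were PGAM2 at -0.62 (adjusted P = 0.0055), TPI1, triose phosphate isomerase, at -0.46 (adjusted P = 0.0082), GPI, glucose phosphate isomerase, at -0.48 (adjusted P = 0.013) and PGM1 at -0.47 (adjusted P = 0.047). None passed from T1 to T2 or from T1 to T3, where 6.86% and 0.759% of all features did. Of the pyruvate and shuttle genes, PDK4 fell from T1 to T2 (-1.69, SE 0.33, adjusted P = 0.0077) and from T1 to T3 (-2.11, SE 0.47, adjusted P = 0.043). Markers of muscle fibres fell in 3 of 8 cases from T2 to T3, with a median of -0.41, against the same 10.7% of calls. Those of connective tissue fell in 6 of 9, with a median of -0.50, led by SPARC at -1.10. From T1 to T2 0 of the 9 fell, with a median of -0.07. Of the 8 fibre markers 1 rose at that step, with a median of 0.16, where 6.86% of all features were called. From T1 to T3 5 of the 9 connective tissue markers fell, with a median of -0.74, where 0.759% of all features were called. The part of these markers in the changes of ENO3 and ENO1 was not tested.

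Between the later crosses no gene of the 4 passed at any time, against calls of 0.753%, 3.28% and 0.539% at T1, T2 and T3, and 4 of the 12 values had an unadjusted P under 0.05. LDHB was the gene with 3 of them. It was higher in the Piedmontese cross on 11 of 12 direct arrays, with values of 0.62, 0.51, 0.08 and -0.08 at T1, 0.15, 0.15, 0.39 and 0.55 at T2 and 0.52, 0.37, 0.46 and 0.60 at T3, and dyes were swapped within each set. The fitted differences were 0.30 (SE 0.12, adjusted P = 0.26), 0.34 (SE 0.11, adjusted P = 0.13) and 0.44 (SE 0.12, adjusted P = 0.13). The fourth value was ENO1 at T1, lower in the Piedmontese cross on all 4 arrays, at -0.56, -0.24, -0.27 and -0.10 (difference -0.30, SE 0.10, adjusted P = 0.17). With array weights LDHB passed at T2 (adjusted P = 0.030) and T3 (adjusted P = 0.020). In the fetal experiment LDHB of Piedmontese over Wagyu read 0.14 (SE 0.15) at d 60 and -0.22 (SE 0.15) at birth.

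In Belmont Red cattle the muscle forms of both enzymes were far lower in the low diet pools at T2, and the widespread forms were not. Relative to the mean of the 12 pools, LDHA stood at -2.73 and -1.74 in the 2 low diet pools at T2 and between 0.11 and 0.73 in the other 10. ENO3 stood at -2.01 and -1.02 in those pools and between -0.07 and 0.77 in the others. ENO1 in the same 2 pools stood at 0.12 and -0.09, inside the range of -0.13 to 0.39 of the other 10, and LDHB at 0.13 and 0.26. LDHB had its own outlying pool, the second growth diet pool at T3, at -0.81.

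**Figure D5:**
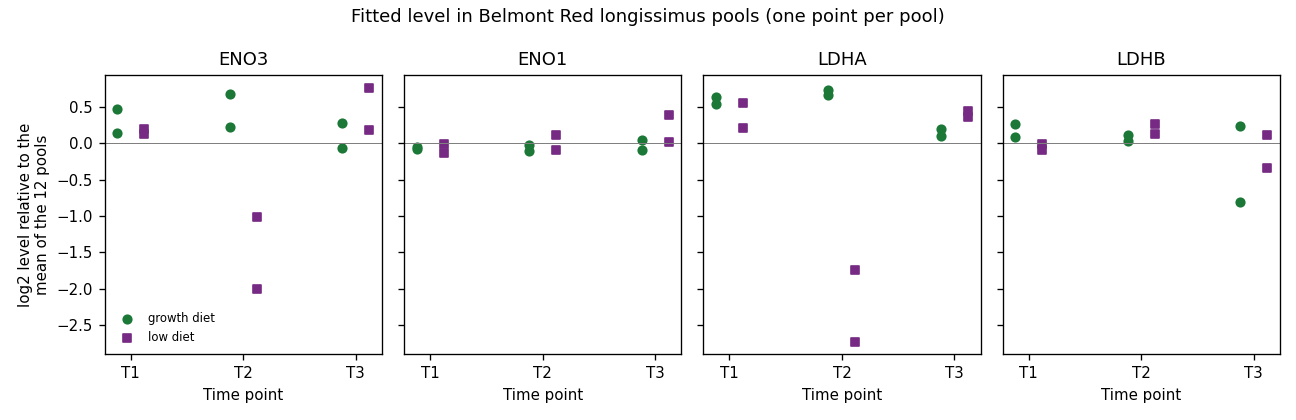
Fitted log2 level (y axis) of the 4 genes in the 12 Belmont Red pools at T1, T2 and T3 (x axis), relative to the mean of the pools, with growth diet as circles and low diet as squares. The low diet pools at T2 lie at -2.01 and -1.02 for ENO3 and at -2.73 and -1.74 for LDHA, apart from all other pools, while ENO1 and LDHB show no such gap.

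The 4 arrays that set a low diet pool directly against a growth diet pool at T2 gave the same picture with both dye orientations. Low over growth, LDHA read -3.28 and -2.57 with the low diet pool in Cy3 and -3.22 and -2.38 with it in Cy5. ENO3 read -2.41 and -1.90 in the first orientation and -2.34 and -1.07 in the second. ENO1 lay between -0.12 and 0.19 and LDHB between -0.25 and 0.04 on these 4 arrays. At T1 the corresponding LDHA values were -0.52, -0.17, -0.42 and 0.06, and at T3 they were 0.06, 0.35, 0.18 and 0.34.

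As means of 2 pools, the low diet value at T2 was 7.66-fold below the growth diet value for LDHA (log2 -2.94) and 3.90-fold below for ENO3 (log2 -1.96), against log2 differences of 0.08 for ENO1 and 0.12 for LDHB. The isoform ratios were lower by 8.33-fold for LDHA over LDHB and 4.12-fold for ENO3 over ENO1. At T1 the 2 ratios differed between diets by log2 0.02 and -0.14, and at T3 by 0.08 and 0.14. Among 974 named genes measured at T2, LDHA had the second lowest difference and ENO3 the ninth lowest, or the second and the ninth highest if the direction of the ratios were turned. LDHA and ENO3 were more than 2-fold lower in both low diet pools than in both growth diet pools, a limit chosen after the values were seen, and so were 2.87% of 16542 features, against 0.0242% at T1 and 0.0181% at T3. In a test added after the values were seen, limma across the fitted levels of the 12 pools with 6 residual degrees of freedom, the T2 difference passed for LDHA (SE 0.27, adjusted P = 0.00039) and ENO3 (SE 0.33, adjusted P = 0.0050) and not for ENO1 (SE 0.16, adjusted P = 0.74) or LDHB (SE 0.30, adjusted P = 0.79), where 24.1% of all features were called. At T1 and T3 limma called 0% of the features, and 258 and 1108 of them had an unadjusted P under 0.05. The labels give neither the number of animals in a pool nor whether pools share animals, so that these P-values measure the spread between pools.

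Of the other 12 genes of glycolysis and glycogen, 5 met that limit at T2, where 2.87% of all features did. The median difference was -1.32, from -1.70 for PGAM2 to -0.17 for PFKM, against a median of 0.03 over all features. None met it at T1 or T3, where the medians were -0.06 and 0.27. Muscle fibre markers met it at T2 in 2 of 8 cases, against the same 2.87%, with a median of -1.06. The lowest were ACTA1, skeletal actin, at -2.88 and MB, myoglobin, at -1.96, while DES, desmin, read 0.95. Connective tissue markers met it in 5 of 9 cases, again against 2.87%, with a median of -1.39, from -2.40 for COL3A1 to -0.10 for COL6A2. Immune markers lay between -0.20 and -0.05 and adipocyte markers between -0.37 and 0.21. The part of these shifts in the values of ENO3 and LDHA was not tested.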

How the data were processed

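The authors deposited a log2 ratio, Cy5 over Cy3, on each array for 21168 elements of a cDNA array printed from muscle and fat libraries. RNA had been linearly amplified, and slides were read with GenePix. Which editing steps these ratios passed is not given in the sources used here. Neither intensities nor a second table with 77 columns were used. A single gene name was available for 4490 elements, more than 1 for 188, and no name for 16490. Of the 4490, 4472 matched the bovine RefSeq table.

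Here, values at the table's upper limit (16.6) were set to missing, arrays were centred on their median, and elements of a gene were averaged. Array precision is limited by the number of arrays. limma 3.58.1 in R 4.3.3 was fitted to each array's log2 ratio, with Cy5 group as plus 1, Cy3 group as minus 1 and a dye intercept, over features with values on a share of at least 0.8 of the arrays (16659 fetal, 17253 crossbred). Benjamini-Hochberg adjustment ran across every feature fitted, with a threshold of 0.05. Isoform ratios were fitted in the same way without moderation, with 17 residual degrees of freedom for the fetal and 14 for the crossbred arrays. Belmont Red pools were fitted as 12 levels, and limma was run across these levels as 6 groups, a test chosen after seeing the data. The scripts were tested on simulated data. Groups came from the labels of each channel.

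The 4 genes and all lists were chosen with earlier results of these data known. Named beside them by rule are the 3 genes most alike to each, every measured isoform pair and the 3 glycolysis genes with the smallest P from d 60 to birth. All other genes named were picked after their values were seen. The labels do not tie replicate numbers to animals. Alternatives were other centring, scaling, filters, averaging, weights, dye and block terms, and leaving out arrays of each number.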

Additional observations from a re-analysis of the deposited data

How the results depend on the processing

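Over 14 alternatives the changes from d 60 to birth kept direction for all 4 genes and both ratios. ENO3 ranged from 3.18 to 3.64, LDHA from 2.20 to 2.93, LDHB from -1.58 to -0.92, the enolase ratio from 4.16 to 4.57 and the lactate dehydrogenase ratio from 3.499 to 4.21. ENO1 ranged from -1.26 to -0.74, and leaving out arrays of 1 number gave -1.26 to -0.74, the latter with an adjusted P of 0.051. The cause was not tested. Of the 12 gene values for fetal steps, 10 passed and 7 to 10 did under the alternatives. The ENO1 change from d 135 over d 60 was lost with no centring, after scaling arrays to 1 spread, with the replicate block and without the arrays numbered 2 or 3. Scaling to 1 spread turned the breed difference in the last step of the enolase ratio from -0.59 to 0.0075. Without the d 60 arrays, an alternative chosen after seeing the data, the link means make the values from d 135 to birth the same by construction and all 4 genes passed. For T3 over T1, ENO1 read -0.71 with a single element (adjusted P = 0.16) and -1.09 to -0.94 without arrays of 1 number. Of 12 crossbred time values 4 passed, against 1 with a single element, 0 to 4 without arrays of 1 number, where fewer arrays were fitted, and 3 to 5 under the others. Of 12 crossbred breed values 0 passed, against 1 after scaling (LDHB at T2), 1 with a single element (LDHB at T2) and 2 with array weights (LDHB at T2 and T3). Of 16 fetal breed values 0 passed, against 1 with array weights (LDHA at d 60). Over all 130 results, 1496 of 1544 alternative values kept their call and direction or moved less than the spread. This total includes the values of Belmont Red and those without the d 60 arrays, whose agreement was fixed by construction. It also includes values that passed under neither setting, so that it does not measure how firm the calls are. A change of sign occurred in 85 values, for single genes only where neither value passed. The replicate block, with an intercept for each array number, gave 4.44 for the enolase ratio from d 60 to birth, 9 called fetal steps and 4 called crossbred time values. The labels do not tie the numbers to animals. In the Cy5 over Cy3 orientation, in which an animal shared by adjoining links enters them with opposite signs, deviations of same-numbered arrays of adjoining links had a median correlation of -0.18, from -0.66 to 0.52, and those of differently numbered arrays 0.076. Fitting Belmont Red as 6 groups gives the same values by construction. Leaving out 1 pool number was an alternative chosen after seeing the data. The spread there was set from the 2 pool numbers themselves, so that no value could fall outside it. Low over growth at T2, LDHA ranged from -3.40 to -2.47 and ENO3 from -2.23 to -1.70 under these alternatives.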
